A study of Homo sapiens with 6 samples.

Results

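Enzymes of asparagine, glutamine, glutamate, proline and arginine metabolism were examined in DU145 cells with and without overexpression of circCSPP1. They are the rows of the deposited FPKM table (fragments scaled by transcript length and by the fragments of the library) that carry the symbols ASNS, GLUL, GLUD1, GPT2, GOT1, GOT2, ALDH18A1, PYCR1 and ASS1, so 9 of 19727 genes. DU145 cells are a long-established line from a human prostate cancer and grow without androgen. The 2 groups were stable DU145 lines made with a lentivirus and selected with puromycin, 1 carrying the circCSPP1 vector (OE, 3 libraries) and 1 carrying the control vector (NC, 3 libraries). RNA was selected for poly(A) tails and sequenced from both ends. Nothing in the labels says that the 3 libraries of a group came from separate cultures, so the p-values measure the spread between libraries, which may be technical. The design text calls the samples paired without saying what a pair shares, and the comparison was fitted without pairs. With 1 line per vector, an effect of circCSPP1 and a difference between the lines cannot be told apart. In such bulk RNA a change per cell and a change in the share of cells cannot be told apart either.

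These enzymes move nitrogen and carbon between a small set of amino acids. Glutamate is the hub. Glutamine synthetase (GLUL) adds ammonia to it, glutamate dehydrogenase (GLUD1) removes its amino group, and aminotransferases pass that group to pyruvate to make alanine (GPT2) or to oxaloacetate to make aspartate (GOT1 in the cytosol, GOT2 in mitochondria). Asparagine synthetase (ASNS) makes asparagine from aspartate and glutamine. Pyrroline-5-carboxylate synthase (ALDH18A1) and pyrroline-5-carboxylate reductase (PYCR1) carry glutamate to proline, and argininosuccinate synthase (ASS1) joins citrulline and aspartate on the way to arginine. ASNS is a textbook target of the transcription factor ATF4 in amino acid shortage, which acts on it through a composite element bound by C/EBP and ATF factors.

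The promoter of ASNS is shown because it holds this known element, that of GOT1 because it held the other match among the enzymes, and that of GOT2 because it belongs to the mitochondrial counterpart of GOT1. The sequences are the 250 bases before the transcript start in RefSeq (GRCh38.p14), all on the minus strand, and capitals mark matches to TGATGNAA or its reverse complement. They lie at chr7:97872409-97872658, chr10:99430625-99430874 and chr16:58734317-58734566.
ASNS: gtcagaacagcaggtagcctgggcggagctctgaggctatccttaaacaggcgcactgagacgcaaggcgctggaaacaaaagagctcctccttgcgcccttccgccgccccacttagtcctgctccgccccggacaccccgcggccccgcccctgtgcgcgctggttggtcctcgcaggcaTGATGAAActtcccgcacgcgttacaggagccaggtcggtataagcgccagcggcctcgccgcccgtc
GOT1: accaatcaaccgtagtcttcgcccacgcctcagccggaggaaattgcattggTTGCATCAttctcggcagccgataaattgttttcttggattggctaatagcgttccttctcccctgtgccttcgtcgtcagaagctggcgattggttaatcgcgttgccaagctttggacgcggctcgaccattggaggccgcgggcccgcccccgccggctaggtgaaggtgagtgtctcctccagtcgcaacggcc
GOT2: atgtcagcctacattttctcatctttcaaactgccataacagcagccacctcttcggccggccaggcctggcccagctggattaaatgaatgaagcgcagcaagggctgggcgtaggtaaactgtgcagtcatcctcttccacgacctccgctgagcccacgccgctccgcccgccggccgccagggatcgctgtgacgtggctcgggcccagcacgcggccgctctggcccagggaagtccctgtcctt

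Promoter windows, from 250 bases before to 50 bases after a start, were at hand for 7 of the 9 enzymes, as 10 windows. GPT2 and PYCR1 had none. TGATGNAA, searched on both strands, was found in 2 of the 10 windows and in 3.62% of all 35116 windows. The match in ASNS, TGATGAAA, lay at chr7:97872469-97872476, its first base 68 bases before the RefSeq start. The outermost start of ASNS in GENCODE release 29, at 97872542, lies further upstream. The match in GOT1, TTGCATCA, was in the opposite orientation at chr10:99430815-99430822. The outermost start of GOT1 in GENCODE release 29, at 99431569, likewise lies further upstream, so this match falls inside the annotated gene. A site of the EGR1 type, GCGNGGGCG on either strand, was searched because EGR1 is the factor the study follows. It was found in 3 of the 10 windows, those of GOT1, GLUD1 and ASS1, and in 9.43% of all windows. These are matches of letters and not measured binding.

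The enzymes lie at separate places in the genome, given here for GRCh38 from GENCODE release 29. GLUD1 (chr10:87050486-87094866), ALDH18A1 (chr10:95605929-95656706) and GOT1 (chr10:99396870-99431569) are on the long arm of 1 chromosome, all on the minus strand. GPT2 (chr16:46884378-46931297, plus strand) and GOT2 (chr16:58707131-58734357, minus strand) share another. GLUL is at chr1:182381704-182392206 and PYCR1 at chr17:81932384-81942412, both on the minus strand, and ASS1 is at chr9:130444929-130501274 on the plus strand. An FPKM value covers the exons of the whole gene, and whether the counting used the strand is not given in the sources used here. Genes on the opposite strand overlap exons of GOT1 (651 bases), GLUD1 (464 bases, SHLD2) and GOT2 (162 bases), so a part of these values could belong to the partner. SHLD2 measured 5.79 to 13.0 FPKM, well under GLUD1. GENCODE names 5 pseudogenes after GLUD1 and 4 each after GLUL and GOT2, and none after GPT2, GOT1, PYCR1 or ALDH18A1.

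Depth was read from low FPKM values of short genes with a single transcript, where 1 fragment makes a fixed step, and came to between 28800000 and 36400000 fragments per library in ranges that overlapped between the groups. The smallest value of the 9 enzymes then still rested on about 1678 fragments (ASS1). For ALDH18A1, at 1842 to 3404 fragments per library, the spread of the NC libraries was no larger than counting error. CSPP1, the gene that gives rise to circCSPP1, measured 9.11, 10.1 and 9.44 FPKM in NC replicates 1, 2 and 3 and 14.5, 22.8 and 21.4 FPKM in OE replicates 1, 2 and 3 (limma adjusted p = 0.016). A gene-level value from poly(A)-selected RNA does not separate the circle from the linear transcript, so the level of circCSPP1 itself was not checked, and the study's own account is that the vector left linear CSPP1 unchanged. The OE libraries differed more from each other than the NC libraries did. Across the tested genes, which are not independent, the deviation of OE replicate 1 from its group mean had a Spearman correlation of 0.78 with the GC content of the transcript, against -0.73 and -0.48 in OE replicates 2 and 3 and -0.06 to 0.10 in NC. The epithelial markers KRT8, KRT18, EPCAM and CDH1 were present in every library and all 4 were lower in OE, KRT8 falling from 1112 ± 26.4 to 416 ± 38.3 FPKM (SD, n = 3). KLK3 and KLK2 were listed at 0 in every library, and the leukocyte, endothelial and fibroblast markers PTPRC, PECAM1 and DCN were at or near 0, while COL1A1 (0.99 to 4.06 FPKM) was not. Whether these differences play a part in the values of the enzymes was not tested.

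ASNS, GPT2, PYCR1 and GOT1 rose with circCSPP1 overexpression and ALDH18A1 fell. Values were taken to log2(FPKM + 1) and fitted with limma across 12322 genes, those averaging 1 FPKM or more over the 6 libraries, and a gene was called at an adjusted p (Benjamini-Hochberg, over all tested genes) under 0.05. All 9 enzymes passed the filter. The 4 of 9 called higher stand beside 4.69% of all tested genes, and the 1 of 9 called lower beside 6.66%. In 7 of the 9 the values of the groups did not overlap, which was so for 36.4% of all tested genes. The median log2 fold change of the 9 was -0.12 and that of all tested genes -0.03, since the 5 enzymes other than the 4 that rose all had negative values.

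**Figure D1:**
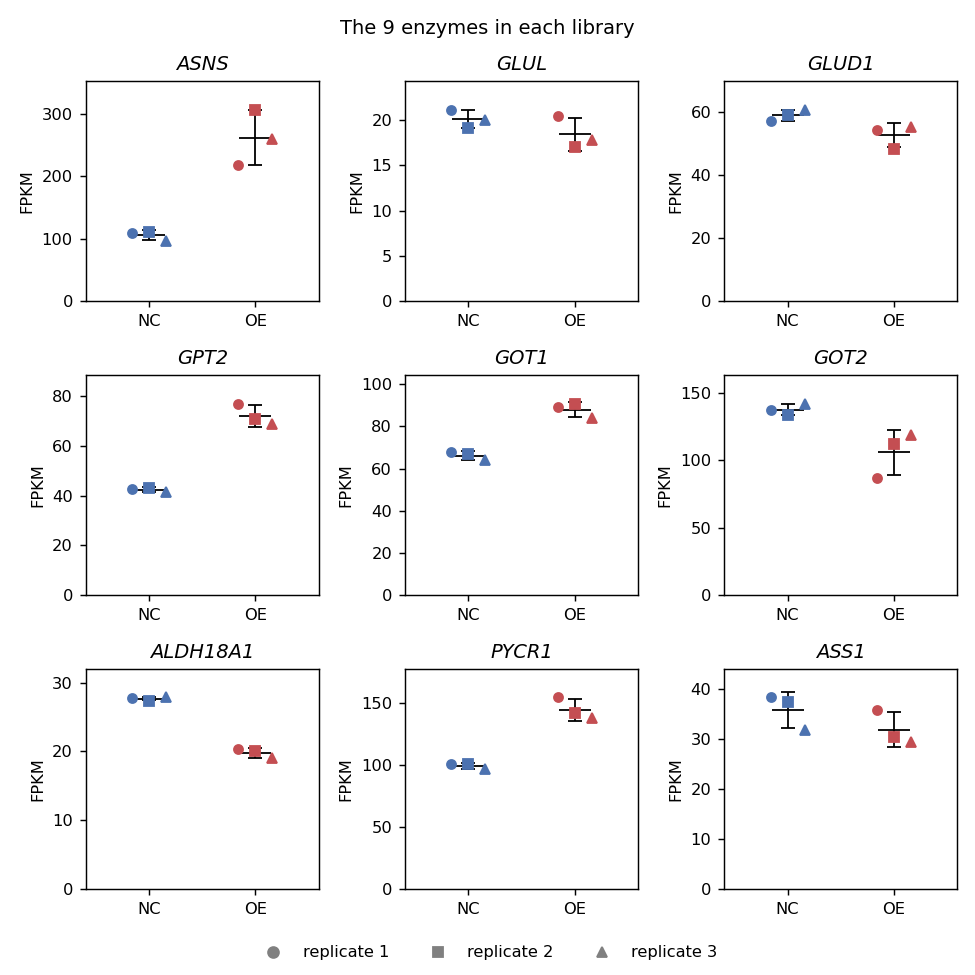
FPKM (y axis, from 0) of each of the 9 enzymes in the 3 NC and the 3 OE libraries (x axis), with 1 point per library, its shape giving the replicate, and a bar for the mean with the SD. ASNS, GPT2, GOT1 and PYCR1 lie higher in every OE library than in any NC library, ALDH18A1, GOT2 and GLUD1 lie lower, and GLUL and ASS1 overlap.

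ASNS, the single enzyme that makes asparagine in human cells, had the largest change of the 9. It measured 110, 111 and 97.4 FPKM in NC replicates 1, 2 and 3, and 218, 307 and 260 FPKM in OE replicates 1, 2 and 3. The lowest OE library was well above the highest NC library. The OE libraries were spread more widely, with replicate 1 lowest and replicate 2 highest. The means were 106 ± 7.54 and 262 ± 44.3 FPKM (SD, n = 3), a ratio of 2.47 and a log2 fold change of 1.29 ± 0.13 (SE, limma adjusted p = 0.0029). It was called under all 18 other settings, with log2 fold changes from 1.16 to 1.41, the highest of them without OE replicate 1. By mean FPKM, ASNS ranked 966 of the 12322 tested genes in NC and 325 in OE. The gene (ENSG00000070669) occupies chr7:97852118-97872542 on the minus strand (GRCh38). It shares 1985 exon bases with the transcript AC079781.5 on the same strand, and GENCODE holds 4 further loci named as its pseudogenes, so fragments from these cannot be set apart in a gene-level value.

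Enzymes that break asparagine down or resemble the synthetase were not called. ASRGL1, an asparaginase, measured 16.0, 24.3 and 24.8 FPKM in NC and 21.4, 21.3 and 23.0 FPKM in OE, with a log2 fold change of 0.04 (limma adjusted p = 0.91), which turned to -0.16 without NC replicate 1. The ratio of ASNS to ASRGL1 within a library was 6.86, 4.57 and 3.92 in NC and 10.2, 14.4 and 11.3 in OE (exact permutation p = 0.10, adjusted over 7 ratios 0.175). ASNSD1, a homologue of ASNS, measured 7.89, 21.2 and 20.4 FPKM in NC and 4.80, 8.10 and 7.14 FPKM in OE (log2 fold change -1.10, adjusted p = 0.093). NC replicate 1 lay among the OE libraries for this gene, which is why the groups overlapped. ASPG, another asparaginase, was below 1 FPKM and not tested.

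The 3 aminotransferases did not move as 1 group. GPT2, which makes alanine and 2-oxoglutarate from pyruvate and glutamate in mitochondria, measured 42.8, 43.0 and 41.3 FPKM in NC replicates 1, 2 and 3 and 77.1, 70.7 and 68.7 FPKM in OE replicates 1, 2 and 3. All OE libraries were higher, and the replicates of each group lay close together. The log2 fold change was 0.75 ± 0.083 (SE, limma adjusted p = 0.0037), and it was called under all 18 other settings, from 0.70 to 0.79. GPT, the cytosolic form, was near the filter at 1.36, 1.44 and 1.13 FPKM in NC and 1.39, 0.99 and 0.91 FPKM in OE, with a log2 fold change of -0.14 (adjusted p = 0.50) that became 0.0135 after quantile normalization. GPT2 thus exceeded GPT by 29.9 to 36.6 times in NC libraries and by 55.4 to 75.5 times in OE libraries (exact permutation p = 0.10, adjusted over 7 ratios 0.175).

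GOT1 and GOT2, the cytosolic and mitochondrial aspartate aminotransferases of the malate-aspartate shuttle, had values of opposite sign. GOT1 measured 67.8, 66.7 and 64.0 FPKM in NC and 89.3, 90.8 and 83.9 FPKM in OE, with every OE library higher. Its log2 fold change was 0.41 ± 0.077 (SE, limma adjusted p = 0.018), and it missed the threshold without NC replicate 1, 2 or 3 or OE replicate 3 (adjusted p 0.060 to 0.095) and with the replicate number as a block (0.053). GOT2 measured 137, 133 and 142 FPKM in NC and 86.9, 112 and 119 FPKM in OE, with every OE library lower and replicate 1 the lowest. Its log2 fold change was -0.39 ± 0.12 (SE, limma adjusted p = 0.084), which did not pass. Without OE replicate 1, the library with the strongest GC trend, it was -0.25 (adjusted p = 0.020), and after correction of each library for GC content and length -0.38 (adjusted p = 0.035).

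The ratio of GOT1 to GOT2 was 0.493, 0.50 and 0.450 in NC replicates 1, 2 and 3 and 1.03, 0.811 and 0.707 in OE replicates 1, 2 and 3. The ratio does not depend on the scaling of a library, and its ranges did not overlap between groups. On the log2 scale (pseudocount 1) the difference was 0.79, and an exact two-sided permutation test gave p = 0.10, the smallest that 3 libraries against 3 allow (0.175 adjusted over 7 ratios). The sum of the 2 enzymes, computed after the values had been seen, was 205, 200 and 206 FPKM in NC and 176, 203 and 202 FPKM in OE, ranges that overlapped. The malate dehydrogenases of the same shuttle were not called. MDH1, the cytosolic form, measured 245 to 251 FPKM in NC and 198 to 223 FPKM in OE (log2 fold change -0.21, adjusted p = 0.11), and MDH2, the mitochondrial form, stood at -0.05 (adjusted p = 0.79).

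**Figure D2:**
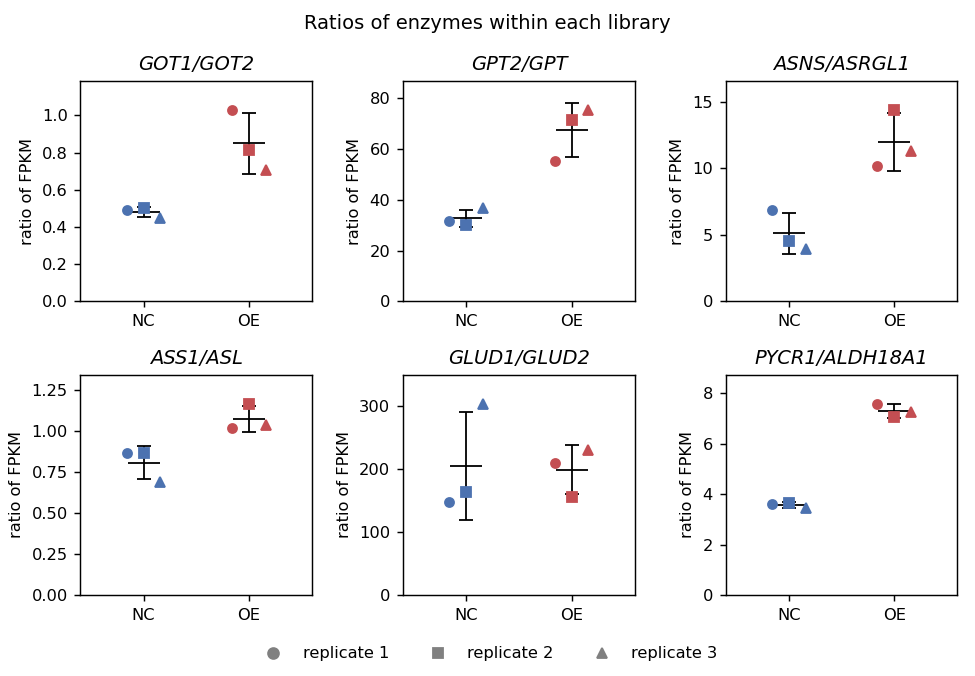
Ratio of the FPKM of 2 enzymes (y axis, linear, from 0) in each NC and OE library (x axis), with the replicate given by the shape and a bar for mean and SD. The ranges of GOT1/GOT2, GPT2/GPT, ASNS/ASRGL1, ASS1/ASL and PYCR1/ALDH18A1 do not overlap between the groups, and those of GLUD1/GLUD2 do.

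The last and the first enzyme of proline synthesis from glutamate moved in opposite directions. PYCR1, which reduces pyrroline-5-carboxylate to proline in mitochondria, measured 100.4, 100.4 and 96.3 FPKM in NC and 154, 141 and 138 FPKM in OE. Every OE library was higher, with a log2 fold change of 0.54 ± 0.077 (SE, limma adjusted p = 0.0078). It was called under 17 of 18 other settings, the exception being without NC replicate 1 (0.55, adjusted p = 0.051). ALDH18A1, which makes pyrroline-5-carboxylate from glutamate, measured 27.8, 27.4 and 27.8 FPKM in NC and 20.3, 20.03 and 19.0 FPKM in OE. Every OE library was lower, and the SD within a group was 0.25 and 0.71 FPKM, the smallest of the 9 enzymes relative to their means. The log2 fold change was -0.46 ± 0.086 (SE, limma adjusted p = 0.017), and the adjusted p was 0.078 to 0.092 without NC replicate 1, 2 or 3 or OE replicate 3 and 0.056 with the replicate number as a block. PYCR1 shares 408 exon bases with MYADML2 (0.37 to 1.07 FPKM) and 450 with an antisense transcript.

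The ratio of PYCR1 to ALDH18A1, chosen after the values had been seen, was 3.62, 3.67 and 3.46 in NC replicates 1, 2 and 3 and 7.60, 7.06 and 7.25 in OE replicates 1, 2 and 3. It was about as tight within OE as the 3 libraries of either enzyme, OE replicate 1 included. PRODH, the mitochondrial enzyme that starts proline breakdown, fell from 12.1, 14.0 and 12.9 FPKM in NC to 8.12, 4.42 and 6.67 FPKM in OE, a log2 fold change of -0.95 ± 0.19 (SE, limma adjusted p = 0.022). It was called under 12 of the 18 other settings, and not with no filter (0.078), with no moderation (0.097) or without NC replicate 1, 2 or 3 or OE replicate 3 (adjusted p 0.068 to 0.0995). PYCR3 (0.44, adjusted p = 0.35), ALDH4A1, which carries pyrroline-5-carboxylate on to glutamate (0.08, adjusted p = 0.66), and OAT, which makes its precursor from ornithine (-0.09, adjusted p = 0.61), gave these log2 fold changes.

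GLUD1 and GLUL were not called. GLUD1 measured 57.2, 59.2 and 60.8 FPKM in NC and 54.5, 48.5 and 55.4 FPKM in OE. The OE libraries were all lower by a narrow margin, with a log2 fold change of -0.16 ± 0.087 (SE, limma adjusted p = 0.28) that stayed negative and uncalled under the 18 other settings. GLUD2, a retrocopy of GLUD1, was listed at 0.20 to 0.39 FPKM in the 6 libraries and was not tested, and fragments of the 2 could be shared. The ratio of GLUD1 to GLUD2 was 147, 164 and 304 in NC and 210, 156 and 231 in OE, ranges that overlapped (log2 difference -0.11, exact permutation p = 0.50, adjusted over 7 ratios 0.583). GLUL measured 21.1, 19.1 and 20.03 FPKM in NC and 20.4, 17.0 and 17.7 FPKM in OE, ranges that overlapped (log2 fold change -0.12 ± 0.11, SE, limma adjusted p = 0.49).

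ASS1 measured 38.4, 37.4 and 31.8 FPKM in NC and 35.9, 30.6 and 29.4 FPKM in OE. The groups overlapped, and the log2 fold change was -0.16 ± 0.12 (SE, limma adjusted p = 0.41). GENCODE names 11 pseudogenes of ASS1, more than of any other of the 9, so its value is uncertain where the authors' counting split fragments among copies. ASL, which cleaves the product of ASS1 to arginine, fell from 44.1, 43.3 and 46.1 FPKM in NC to 35.2, 26.1 and 28.2 FPKM in OE (log2 fold change -0.57 ± 0.12, SE, limma adjusted p = 0.027). It was called under 11 of the 18 other settings. The ratio of ASS1 to ASL was 0.871, 0.865 and 0.691 in NC and 1.02, 1.17 and 1.04 in OE (log2 difference 0.41, exact permutation p = 0.10, adjusted 0.175).

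Among the other enzymes around these amino acids, the largest rise was that of ODC1. The list held 44 enzymes, of which 31 were tested, 1 called higher, 3 lower and 27 not called. Over all tested genes 4.69% were called higher and 6.66% lower, so these counts are near the background. Their median log2 fold change was -0.05, beside -0.03 over all tested genes. ODC1, ornithine decarboxylase and the rate-limiting enzyme of polyamine synthesis, measured 121, 110 and 136 FPKM in NC and 227, 274 and 251 FPKM in OE. Its log2 fold change was 1.03 ± 0.11 (SE, limma adjusted p = 0.0032), and it was called under all 18 other settings. The 3 that fell were PRODH, ASL and GFPT2. GFPT2, a glutamine amidotransferase at the entry of the hexosamine pathway, fell from 67.2, 65.6 and 62.0 FPKM to 43.6, 39.2 and 42.4 FPKM (log2 fold change -0.62 ± 0.085, SE, limma adjusted p = 0.0064). Its paralogue GFPT1 stood at 0.09 on the same scale (adjusted p = 0.72).

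The other 7 glutamine amidotransferases, CAD, PPAT, PFAS, CTPS1, CTPS2, GMPS and NADSYN1, which use the amide of glutamine for nucleotide and NAD synthesis as ASNS does for asparagine, were not called, with log2 fold changes from -0.19 to 0.19. The 13 enzymes below the filter were ASPG, GLUD2, GAD2, GOT1L1, TAT, PRODH2, ARG1, CPS1, OTC, NOS1, NOS2, NOS3 and AGMAT. They include CPS1, OTC and ARG1, enzymes of the urea cycle in liver.

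**Figure D3:**
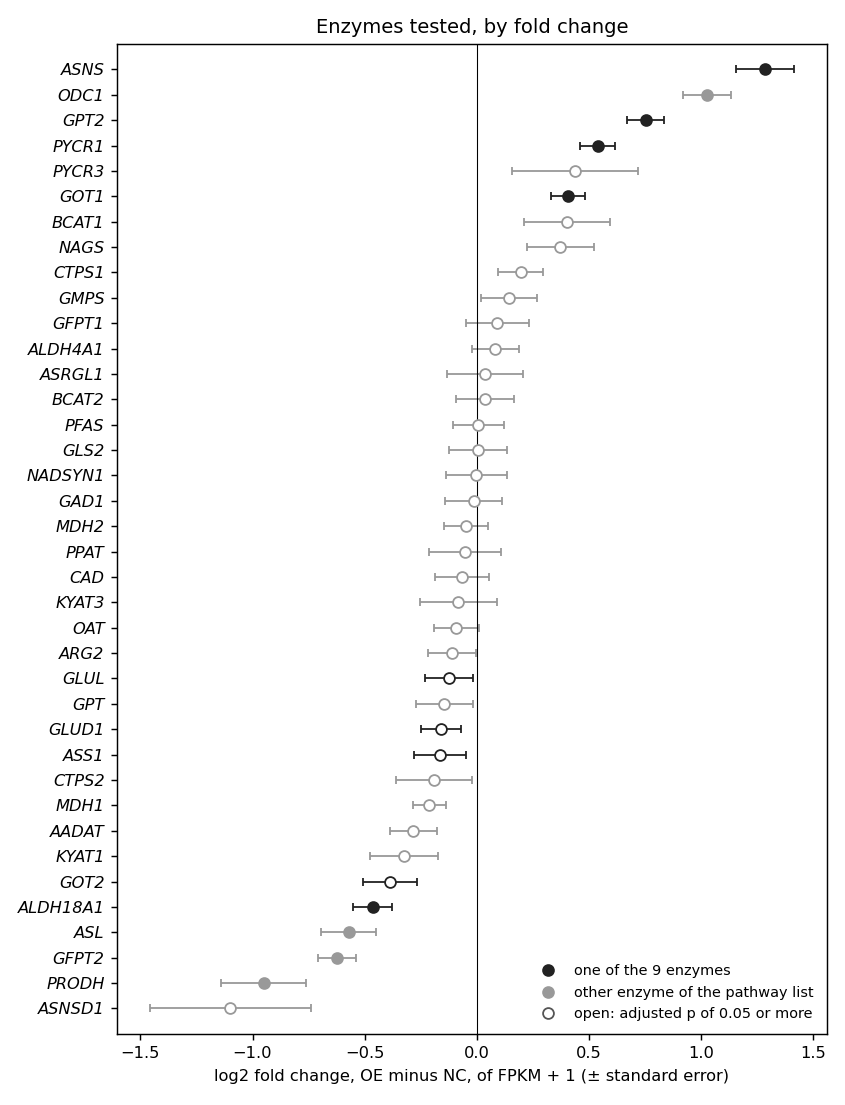
Log2 fold change of FPKM + 1, OE minus NC (x axis), with its standard error, for the 9 enzymes (black) and other tested enzymes of the list (grey), ordered by value (y axis). Filled points have an adjusted p under 0.05. ASNS stands at the top at 1.29, followed by ODC1 at 1.03 and GPT2 at 0.75, and PRODH is the lowest of the called enzymes at -0.95.

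The order of the 9 enzymes by level changed between the groups. FPKM is scaled by length, so levels of different genes can be set side by side roughly. Scaling by length does not account for GC content, which ran from 46.4% (GLUD1) to 61.8% (PYCR1) among the 9. The GC trend differed between the OE libraries, and its part in the order was not tested. In NC the order of mean FPKM was GOT2, ASNS, PYCR1, GOT1, GLUD1, GPT2, ASS1, ALDH18A1 and GLUL, and of these neighbours ASNS (97.4 to 111 FPKM) and PYCR1 (96.3 to 100.4 FPKM) overlapped. In OE it was ASNS, PYCR1, GOT2, GOT1, GPT2, GLUD1, ASS1, ALDH18A1 and GLUL, and GOT2 overlapped GOT1 and ALDH18A1 overlapped GLUL. GPT2 moved past GLUD1, and GOT2 moved from place 1 to place 3. The 9 values summed to 582 to 603 FPKM in NC libraries and 757 to 838 FPKM in OE libraries. Most of this rise came from ASNS: the mean sum was 594 in NC and 795 FPKM in OE, and ASNS alone averaged 106 and 262 FPKM. The sum does not describe the 9 as a set, since 5 of them had negative log2 fold changes.

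Over the 6 libraries, the genes whose log2(FPKM + 1) followed ASNS most closely were GARS (Pearson r 0.9996), KDM4A (0.998), WAC (0.997), CTH (0.997) and FAM129A (0.997), the 9 enzymes left out. The points share the 2 groups, so these values mostly describe the difference between them and the order of the OE libraries. GARS, the glycyl-tRNA synthetase, measured 267 to 290 FPKM in NC and 408, 488 and 447 FPKM in OE replicates 1, 2 and 3, with the lowest and the highest OE library the same as for ASNS. CTH, which makes cysteine from cystathionine, measured 7.49 to 8.45 FPKM in NC and 14.4, 19.1 and 15.9 FPKM in OE replicates 1, 2 and 3.

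**Figure D4:**
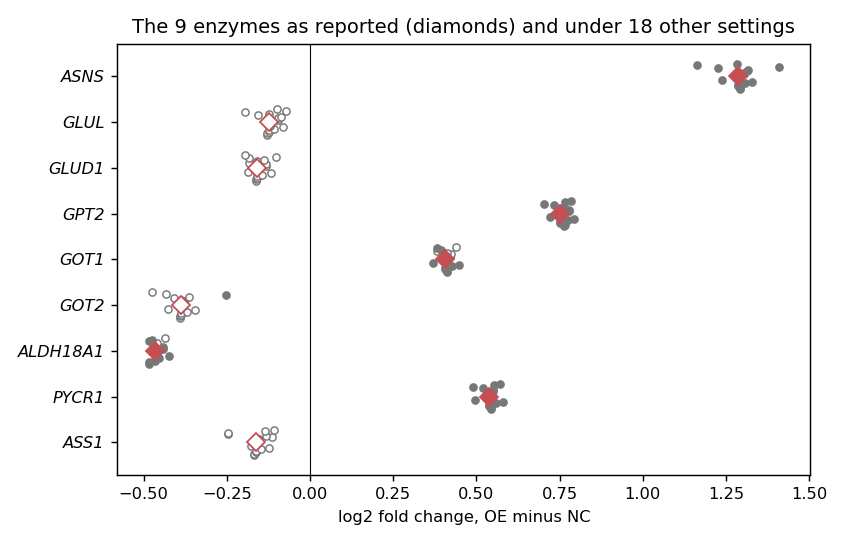
Log2 fold change, OE minus NC (x axis), of each of the 9 enzymes (y axis) as reported (diamonds) and under 18 other settings of the processing (circles), filled where the adjusted p was under 0.05. No value changes sign; ASNS and GPT2 are filled throughout, and GOT1 and ALDH18A1 are filled under 13 of the 18.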

How the data were processed

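The labels describe poly(A) selection and paired-end sequencing on an Illumina NovaSeq. The authors deposited 1 table of FPKM values, rounded to 2 decimals, with 1 column per library; the processing notes name the build hg38, and the aligner, the FPKM program and the annotation are not given in the sources used here. Columns were matched to samples by group and replicate number. No count model was used, because FPKM values have been scaled, and a shift in a few abundant genes moves the FPKM of all others. Values were taken to log2(FPKM + 1), genes with a mean under 1 FPKM (7405) were left out, and OE and NC were compared with limma 3.58.1 in R 4.3.3 (two-sided test, eBayes variance moderation with an intensity trend, group as the only term) with Benjamini-Hochberg adjustment over all tested genes. The paper's methods name a general 2-sample test, which was run as the unmoderated alternative. Ratios of 2 enzymes (7 in all, PYCR1 to ALDH18A1 not among them) were tested by exact permutation over libraries. A few list genes and 2 of the 7 ratios are not reported here, but are included in the counts and adjustments.

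Positions, transcript lengths and GC content came from GENCODE release 29 (19674 genes matched by Ensembl identifier; the authors may have used another release), and promoters from RefSeq. The depth was estimated with a tolerance of 0.15 of a step, which 93.4% to 98.8% of the 73 to 89 values per library met, beside 30.0% by chance. The fit and the depth estimate were tested on simulated data. The genes to name were all 9 enzymes, the called enzymes of the pathway list and partners in a ratio, the 5 genes most like ASNS, CSPP1 and the markers; further enzymes of the lists were named with their values known. The enzymes, lists and tests were chosen with earlier results of these data known. Figures were drawn with matplotlib 3.10.9.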

Additional observations from a re-analysis of the deposited data

How the results depend on the processing

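Of the 162 fold changes of the 9 enzymes under 18 settings each, 148 kept direction and call, 11 lost the call, 3 gained it and 0 changed sign. The count of called enzymes was 5, was 6 after the GC and length correction (with and without the block), and ran from 2 to 6 when a library was left out: 2 without NC replicate 1, 3 without NC replicate 2, NC replicate 3 or OE replicate 3. Such fits hold 5 libraries. For the other enzymes the count was 4, 2 with no filter, 2 with no moderation, 9 with the GC and length correction, alone or with the block, and 2 to 8 when a library was left out (2 without NC replicate 2, NC replicate 3 or OE replicate 3, 8 without OE replicate 1). Over all tested genes it was 1399, 834 with no moderation, 3526 with the correction, 2731 with the correction and the block, and 300 (without NC replicate 1) to 3512 (without OE replicate 1) when a library was left out, with 317, 407 and 450 without NC replicate 2, NC replicate 3 and OE replicate 3. The cause was not tested.

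The design text calls the samples paired, but no label says that a replicate number marks a pair. Same-numbered deviations from the group means had correlations of 0.073, 0.0065 and 0.057 across genes, none over 0.1. OE replicates 1 and 3 correlated best with their own number and OE replicate 2 with NC replicate 3 (0.036). With the replicate number as a block 3 of the 9 enzymes were called, GOT1 (adjusted p = 0.053) and ALDH18A1 (0.056) missing the threshold, and 923 genes overall; the number of other enzymes called was 5.

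GPT changed sign after quantile normalization (0.0135), and ASRGL1 without NC replicate 1 (-0.16; range when a library was left out -0.16 to 0.14). GLUD1/GLUD2, a log2 difference of -0.11, was 0.012 with a pseudocount of 0.01, and the correction could not be fitted for it because GLUD2 was below the filter. The other 4 ratios reported kept their direction under each setting run. At 0.20 to 0.39 FPKM, GLUD2 lies below the filter of 1 FPKM, and small differences at that level move the ratio strongly.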
